A study of Phormium tenax with 2 samples.

Results

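WRKY proteins are plant transcription factors that share a conserved DNA-binding domain with a zinc finger and bind short promoter elements called W boxes. The family is known mainly from defence against pathogens and from responses to wounding, salt, drought and abscisic acid, and in Arabidopsis several of its genes are themselves switched on quickly by stress signals and by other WRKY proteins. Described here are 6 unigenes of the WRKY family in leaves of *Phormium tenax* (New Zealand flax), out of 75265 unigenes in all. They are the WRKY unigenes that the study names by identifier, c55976.graph_c0, c56991.graph_c0 and c57387.graph_c0 as candidate drought resistance genes, after comparison with known genes in a phylogenetic tree, and c54290.graph_c0, c54571.graph_c1 and c52656.graph_c0 as genes taken to qRT-PCR. All were selected on their difference between the same pair of libraries, so their drought to control ratios below are a description and no test of them is given.

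The drought library (T01) came from leaf blades of plants aged 1 year whose pots had dried to 25% of saturation, and the control library (T02) from plants of the same age in pots held at 70%. Both were harvested 10 days after the soil of the drought pots had reached its target. Each library was made from RNA of 3 plants mixed in equal quantity, so there is 1 library per condition and the spread between plants is unknown. The unigenes are clusters of transcripts assembled from the reads without a genome, so they have no chromosomal position and carry no gene name in the deposited tables. The family name is the study's annotation. Neither the unigene nor the protein sequences were used here, so the WRKY domain itself was not checked.

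The drought library held 17744093 estimated reads on 60256 unigenes, and the control library 18540664 on 50459. The top 10 unigenes made up 6.64% of all reads in drought, against 10.5% in control, and counts were scaled by the TMM method before they were compared. TPM, which is scaled for length and library size, is used wherever levels of different unigenes are set side by side. Intervals in brackets are 95% intervals of counting error only, exact for a level (Poisson) and for a ratio or share of reads (Clopper-Pearson). For a share of the summed TPM of the WRKY unigenes, the Poisson limits of that unigene were used with the others held fixed. Those share intervals leave out the counting error of the others and are too narrow. All intervals contain none of the variation between plants and take PCR copies as separate molecules.

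The sequences at hand for these unigenes are the qRT-PCR primers of c54290.graph_c0, c54571.graph_c1 and c52656.graph_c0. They define the stretch of each transcript that the study's qRT-PCR read. They are shown 5′ to 3′ with the last 5 bases in capitals, the end from which the polymerase extends.
c54290.graph_c0 forward: tcctctgtactcctactGTGAC
c54290.graph_c0 reverse: tccagccctgtaaaatCTTCC
c54571.graph_c1 forward: cgtcacctctgattatGGCTC
c54571.graph_c1 reverse: ccacctttatcctcttcAGCTC
c52656.graph_c0 forward: gctgatcataacctacACCGG
c52656.graph_c0 reverse: ctactcccttccgtttTCTCC
The 6 primers are 21 or 22 bases long with a G+C content of 47.6% to 52.4%, and each holds 3 or 4 G or C among its last 5 bases. Primers for the other 3 unigenes are not given, and no qRT-PCR value enters this description.

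All 6 WRKY unigenes were at a higher level in the drought library. The study reports further differentially expressed WRKY genes, most of them higher in drought and some lower, which are not described here. Below, summed WRKY TPM and WRKY reads are those of these 6 unigenes and not of the family. Their TPM values lay between 60.9 and 666 in drought and between 5.10 and 36.9 in control, so the lowest drought value was 1.65 times the highest control value. Because the members were picked on this contrast, nothing is read from the gap between these ranges. Together they amounted to 1403 TPM in drought and 85.1 TPM in control, a ratio of 16.5, and to 0.132% of the drought reads against 0.00717% of the control reads. Without the most abundant of them, c55976.graph_c0, the summed ratio was 15.3, so the ratio did not rest on that unigene. In bulk leaf RNA, more RNA per cell and more cells that express a gene cannot be told apart.

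**Figure D1:**
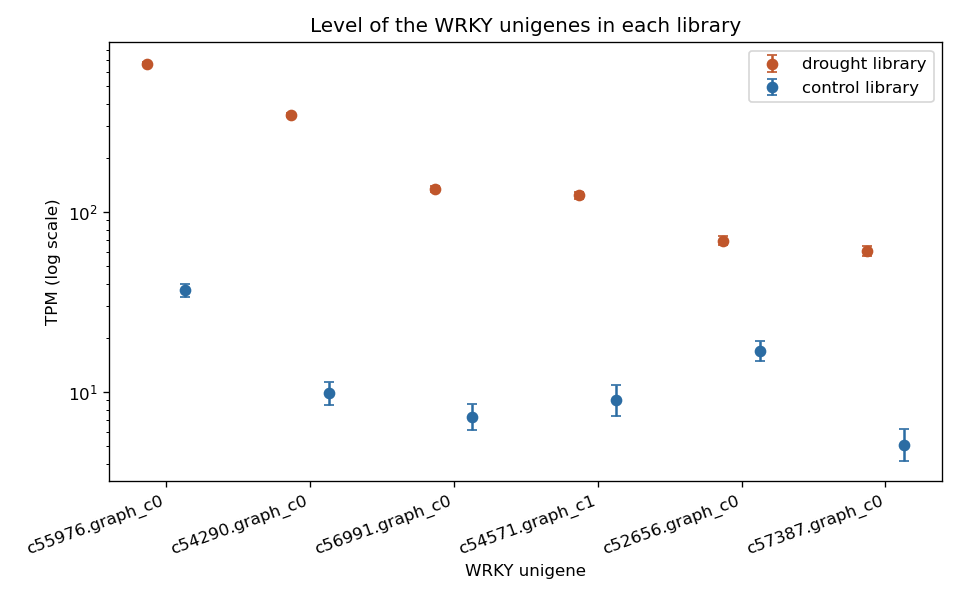
Level of each WRKY unigene (TPM, logarithmic axis) in the drought library (left point of each pair) and in the control library (right point), with 95% counting intervals and 1 pooled library per condition. Drought values run from 60.9 to 666 TPM and control values from 5.10 to 36.9 TPM, in members picked on this contrast. The gap is smallest for c52656.graph_c0.

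The log2FC, the log2 ratio of TMM-scaled reads in drought over control with 1 read added to each, was at least 2 for 6 of the 6. That threshold is also the one by which the study screened for differential expression, together with a false discovery rate that was not recomputed here. Among all 71410 unigenes with reads, 27.6% were that much higher in drought, many of them with few reads, and among the 16503 with at least 100 reads in both libraries together the share was 7.22%. All 6 WRKY unigenes belong to the second set. Because the members were picked on this contrast, nothing is read from their count against these shares. The median log2FC of the members was 3.95, beside 0.38 over all unigenes with reads and -0.07 over those with at least 100 reads. Of the unigenes with at least 100 reads, 3.91% had a log2FC of at least 3 (5 of the members) and 2.38% of at least 4 (1 member).

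**Figure D2:**
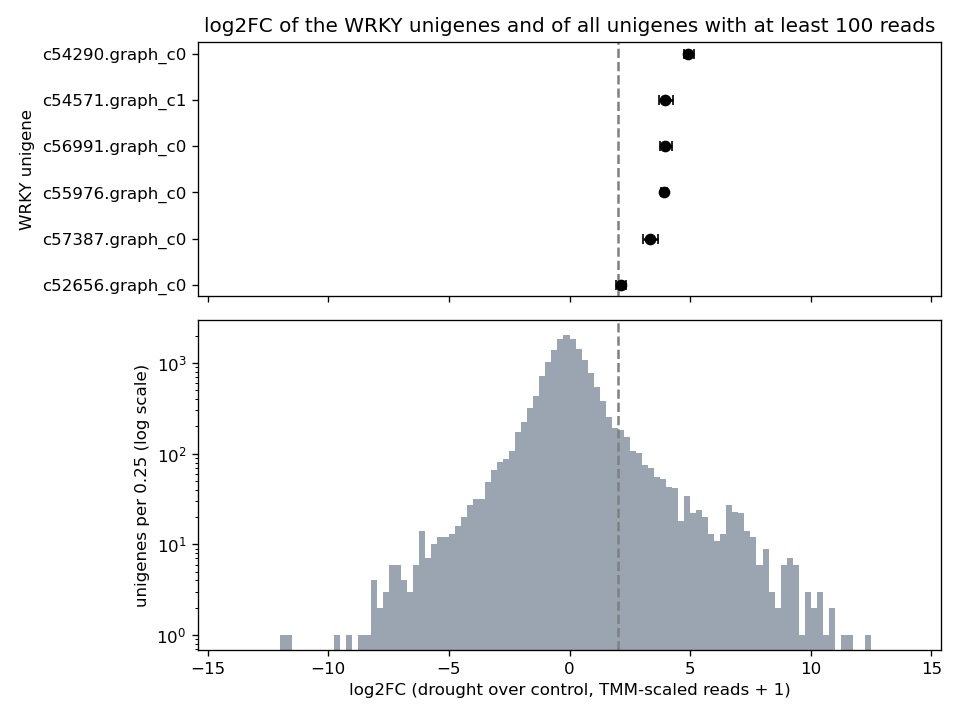
Upper panel, log2FC of each WRKY unigene (drought over control) with its 95% counting interval. Lower panel, number of unigenes per log2FC step of 0.25 (logarithmic axis) among the 16503 with at least 100 reads. The dashed line marks a log2FC of 2. The members lie between 2.13 and 4.93, in the upper tail of the distribution, and the interval of c52656.graph_c0 alone crosses the line.

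The unigene c54290.graph_c0 differed most between the libraries. It had 6757 reads in drought and 189 in control, or 348 TPM [339 to 356] against 9.87 TPM [8.51 to 11.4]. Its log2FC was 4.93 [4.73 to 5.15], 30.6-fold in scaled reads, and of the 16503 well-covered unigenes 264 (1.60%) had a higher one. In the drought library it ranked 285 among all unigenes by TPM, and in the control library 12415, which is above 99.6% of all unigenes in drought and above 83.5% in control. It also has the simplest make-up of the 6, with 2 assembled transcripts.

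Of the 6, the unigene c55976.graph_c0 was the most abundant in both libraries. Other unigenes of the family were not examined. Its 9943 drought reads and 558 control reads correspond to 666 TPM [653 to 680] and 36.9 TPM [33.9 to 40.1]. The log2FC was 3.93 [3.81 to 4.06], 15.3-fold in scaled reads, and its rank by TPM was 117 in drought and 4576 in control. It held 47.5% of the summed WRKY TPM in drought [47.0% to 48.0%] and 43.4% in control [41.3% to 45.4%]. Its share of WRKY reads not scaled for length was 42.4% in drought and 42.0% in control, so the difference in share is seen on the TPM scale and was not detectable in the reads.

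For c56991.graph_c0 there were 2524 drought reads and 137 control reads, which is 135 TPM [130 to 140] and 7.30 TPM [6.13 to 8.63]. Its log2FC of 3.97 [3.73 to 4.24] was 0.04 above that of c55976.graph_c0, far inside the counting error of either. The ratio of c55976.graph_c0 to c56991.graph_c0 was 4.94 in drought [4.73 to 5.16] and 5.06 in control [4.19 to 6.14], so these unigenes kept nearly the same proportion at very different levels. The study places both among its drought resistance candidates.

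The third of these candidates, c57387.graph_c0, is the one that the study likens to soybean GmWRKY54, a gene linked in that work to salt and drought tolerance. It was the least abundant of the 6 in both libraries, with 60.9 TPM [57.3 to 64.6] from 1104 reads in drought and 5.10 TPM [4.12 to 6.25] from 93 reads in control. Its log2FC was 3.33 [3.04 to 3.67], or 10.2-fold, below those of c55976.graph_c0 and c56991.graph_c0 with no overlap of the intervals. Even so it stood above 96.3% of all unigenes in drought by TPM and above 78.0% in control.

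The unigene c54571.graph_c1 had 1813 reads in drought and 98 in control, or 124 TPM [118 to 130] and 9.03 TPM [7.33 to 11.0]. Its log2FC was 3.97 [3.69 to 4.29]. On the TPM scale the log2 ratio was smaller, 3.78, although that of the 3 candidates and of c54290.graph_c0 was 0.21 to 0.24 larger on the TPM scale than from scaled reads. For the unigenes with at least 100 reads and a TPM above 0 in both libraries, the median log2 TPM ratio was 0.12 and the median log2FC -0.08, so TPM ratios in general ran higher. The exception comes from the length by which TPM divides, which is given below.

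The smallest difference was that of c52656.graph_c0. Its reads numbered 1304 in drought and 254 in control, or 69.5 TPM [65.8 to 73.4] and 16.9 TPM [14.9 to 19.1]. The log2FC of 2.13 [1.94 to 2.34] was 4.40-fold, and it is the member nearest to the threshold of 2. With upper-quartile scaling it was 1.92 and fell short. Among the unigenes with at least 100 reads, 6.53% had a higher log2FC, compared with at most 3.30% for each of the other 5.

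Of the 15 pairs of WRKY unigenes, 12 had log2FC intervals that did not overlap. The 3 pairs that could not be ordered are those among c54571.graph_c1, c56991.graph_c0 and c55976.graph_c0, whose values were 3.97, 3.97 and 3.93. These form a middle group, with c54290.graph_c0 0.96 above it, c57387.graph_c0 0.60 below it and c52656.graph_c0 a further 1.20 lower. From end to end the members spanned 2.80 in log2FC. The middle group holds for scaled reads only. On the TPM scale the log2 ratio of c54571.graph_c1 was 3.78, nearer to c57387.graph_c0 (3.58) than to c55976.graph_c0 (4.17) or c56991.graph_c0 (4.21).

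The order of levels differed between the libraries. In drought it ran c55976.graph_c0, c54290.graph_c0, c56991.graph_c0, c54571.graph_c1, c52656.graph_c0 and c57387.graph_c0, and no neighbours overlapped in their counting intervals, although those of c56991.graph_c0 and c54571.graph_c1 nearly met (1.09 times apart). In control c55976.graph_c0 was again first, but c52656.graph_c0 came second, and c54290.graph_c0, c54571.graph_c1, c56991.graph_c0 and c57387.graph_c0 followed with each neighbouring pair overlapping. Even so, the control ratio of c56991.graph_c0 to c57387.graph_c0 was 1.43 [1.09 to 1.88], so the interval of the ratio orders this pair. The highest level was 10.9 times the lowest in drought and 7.24 times in control.

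The widest shift in proportion was between c54290.graph_c0 and c52656.graph_c0. In drought c54290.graph_c0 was at 5.0 times the TPM of c52656.graph_c0 [4.71 to 5.31], whereas in control it was at 0.583 times [0.481 to 0.707]. The share of c54290.graph_c0 in the summed WRKY TPM was 24.8% in drought [24.3% to 25.2%] and 11.6% in control [10.2% to 13.1%]. That of c52656.graph_c0 was 4.95% in drought [4.70% to 5.22%] and 19.9% in control [17.9% to 21.9%]. The other shares lay closer together, at 9.62% in drought and 8.57% in control for c56991.graph_c0, 8.82% and 10.6% for c54571.graph_c1, and 4.34% and 5.99% for c57387.graph_c0. For c54571.graph_c1 the direction turned when reads were not scaled for length, with 7.73% in drought and 7.37% in control. Over all 15 pairs, the ratio of levels within a library had overlapping intervals in drought and control for 4, which are c55976.graph_c0 with c56991.graph_c0, and c54571.graph_c1 with each of the 3 candidates.

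**Figure D3:**
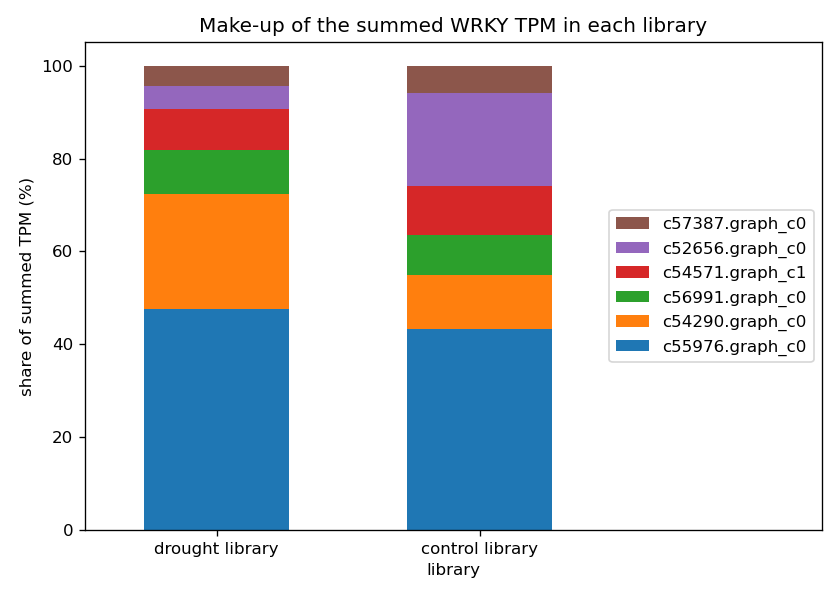
Share of each WRKY unigene in the summed TPM of all 6 (percent, stacked to 100) in the drought library (left) and in the control library (right). The largest block is c55976.graph_c0 in both (47.5% and 43.4%), while c54290.graph_c0 takes 24.8% in drought and 11.6% in control and c52656.graph_c0 takes 4.95% in drought and 19.9% in control.

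The transcript make-up of the unigenes was not used to choose them. All 6 consist of several assembled transcripts, 46 in total, with 16 for c54571.graph_c1, 10 for c56991.graph_c0, 7 each for c55976.graph_c0 and c52656.graph_c0, 4 for c57387.graph_c0 and 2 for c54290.graph_c0. Several transcripts are found in 27.7% of all unigenes, but in 76.0% of those with at least 100 reads, with a median of 4 among the latter set's multi-transcript unigenes. The transcripts of a unigene can be splice forms, alleles, close gene copies or assembly variants, and which of these they are was not tested.

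For a unigene with several transcripts the deposited length differs between the libraries, and it was read here as a mean weighted by how much each transcript was expressed, which the study does not state. For 4 members the lengths were nearly equal, with 1258 bp in drought and 1260 bp in control for c54290.graph_c0, 983 and 1011 bp for c55976.graph_c0, 1213 and 1236 bp for c56991.graph_c0, and 1178 and 1203 bp for c57387.graph_c0. These differ in size by 0.15% to 2.77%, below the median difference of 3.32% among the 11106 unigenes that have several transcripts and at least 50 reads in each library.

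The other members were longer in the drought table. The length of c54571.graph_c1 was 966 bp in drought and 748 bp in control, a difference of 218 bp or 29.2%, and 3.63% of those 11106 unigenes differed by more. For c52656.graph_c0 it was 1216 bp in drought and 1004 bp in control, 212 bp or 21.1% longer, and 7.55% of the unigenes differed by more. In the same set 47.9% of unigenes were longer in drought. On this reading, longer transcripts of both unigenes took a larger part of the reads in drought, and their TPM ratios are lower than their read ratios would give (log2 3.78 and 2.04, against a log2FC of 3.97 and 2.13). The lengths carry no error estimate, and the control value of c54571.graph_c1 rests on 98 reads spread over 16 transcripts.

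**Figure D4:**
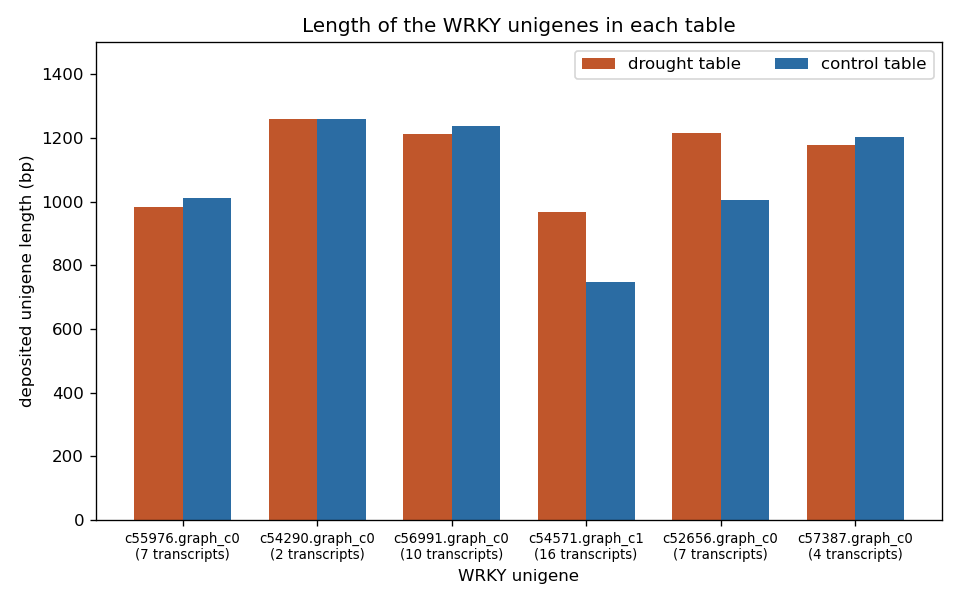
Deposited length of each WRKY unigene (bp) in the drought table (left bar) and in the control table (right bar), with the number of assembled transcripts below each name. The bars are nearly level for 4 unigenes, while c54571.graph_c1 (966 and 748 bp) and c52656.graph_c0 (1216 and 1004 bp) are longer in the drought table.

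One member, c54571.graph_c1, shares its Trinity component, the graph of overlapping contigs from which transcripts are read, with another unigene, c54571.graph_c0 (1 transcript of 574 bp). Unigenes that share a component make up 10.02% of the total, and the other 5 members stand alone in theirs. The partner went the opposite way, with 337 reads in drought and 801 in control, or 41.1 and 99.6 TPM. Its log2FC was -1.47 [-1.66 to -1.29], so it was 2.78 times higher in the control library in scaled reads. The member held 84.3% of the component's reads in drought [82.7% to 85.8%] and 10.9% in control [8.94% to 13.1%]. Added together, the component had 2150 reads in drought and 899 in control and a log2FC of 1.03 [0.92 to 1.15], below the threshold of 2. The partner has no annotation in the sources used here, so whether it belongs to the same gene was not tested. The authors' counting could have divided reads of similar sequence between them, which was not tested. The estimated counts were 1812.93 in drought and 98.00 in control for the member, and 337.00 in drought and 801.28 in control for the partner.

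**Figure D5:**
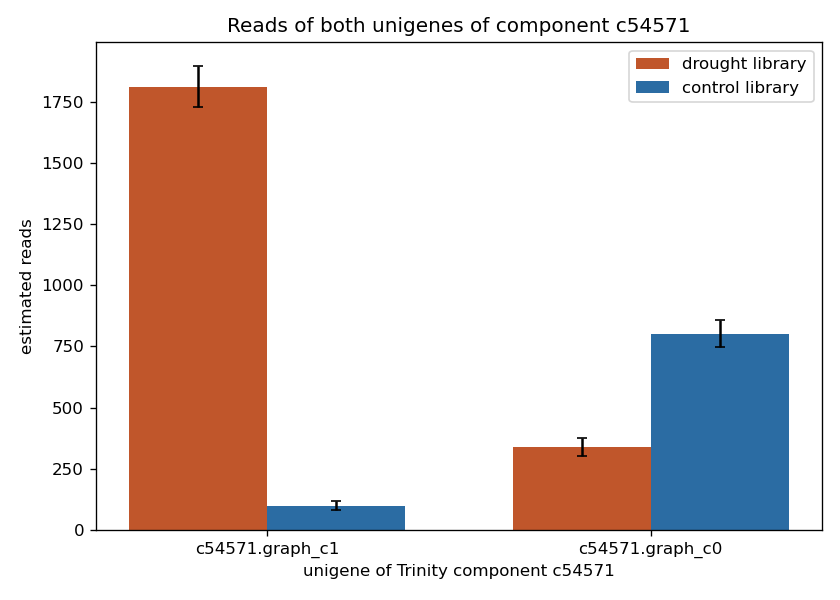
Estimated reads of the WRKY unigene c54571.graph_c1 and of its component partner c54571.graph_c0 in the drought library (left bar of each pair) and the control library (right bar), with 95% Poisson intervals. The member has 1813 and 98 reads and the partner 337 and 801.

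An estimated count of a unigene can hold fractions where reads were shared between unigenes. In the control library 4 of the 6 members had whole counts, and c55976.graph_c0 (558.16) and c54290.graph_c0 (189.02) had fractions. In the drought library none was whole, and c57387.graph_c0 (1103.56) lay farthest from a whole number. The size of a fraction does not show how many reads were shared. A whole count does not show that every read was unique, and the similarity of the members to one another was not examined.

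Likeness in level was measured as the distance between unigenes on log2(TPM + 1) over the 2 libraries, where every unigene near a member differs between the libraries by a similar amount. The nearest of all unigenes were c44623.graph_c0 to c55976.graph_c0 (distance 0.33), c61366.graph_c0 to c56991.graph_c0 (0.05), c65681.graph_c1 to c57387.graph_c0 (0.07), c66144.graph_c0 to c54290.graph_c0 (0.08), c56084.graph_c1 to c54571.graph_c1 (0.23) and c54747.graph_c0 to c52656.graph_c0 (0.05). None of these has a gene name in the sources used here. Within a distance of 0.5 lay 6 unigenes for c55976.graph_c0 and 7 for c54290.graph_c0, but 125 for c52656.graph_c0, so the first 2 had few unigenes at a comparable level in both libraries.

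Likeness was also sought among the 43 other unigenes on the lists of named genes. There c57387.graph_c0 was nearest to the MYB unigene c57500.graph_c0 (distance 0.14), which was at 58.1 TPM in drought and 4.58 TPM in control. The MYB unigene c56737.graph_c0 was nearest to c55976.graph_c0 (distance 0.41), at 563 TPM in drought and 46.5 TPM in control. MYB proteins are another large family of plant transcription factors. The nearest to c52656.graph_c0 was c39046.graph_c0 (distance 0.23), a PP2C unigene of the phosphatase class that restrains abscisic acid signalling, with 72.0 TPM in drought and 14.3 TPM in control. For c56991.graph_c0 and c54571.graph_c1 it was c49155.graph_c1 (distances 0.70 and 0.64), an OPCL1 unigene of jasmonate synthesis. On these lists no unigene came close to c54290.graph_c0, the nearest being the peroxidase unigene c28269.graph_c0 at 1.41. Among the 6 members themselves, c56991.graph_c0 and c54571.graph_c1 were the closest pair (0.30), while c55976.graph_c0 lay 2.03 from its nearest member, c54290.graph_c0.

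The list of other transcription factors holds 12 unigenes of the MYB, NAC, AP2 and MYC families, named in the same way as the WRKY unigenes. Of these, 11 had a log2FC of at least 2 and none of -2 or lower, with a median of 3.41. The exception was the AP2 unigene c60139.graph_c1, at -0.76. It fell short of the threshold of 2, although the study took it to qRT-PCR as differentially expressed. The 4 MYB unigenes with reads in both libraries lay between 3.38 and 3.77, by value between c57387.graph_c0 and the middle group of WRKY unigenes. Their counting intervals all overlapped that of c57387.graph_c0. The widest was that of c37958.graph_c0, with 4 control reads [2.63 to 5.95]. The MYB unigene c38669.graph_c0 had 43 reads in drought and 0 in control, which is 12.3-fold higher with 3 reads put in place of 0. The MYC unigene c67021.graph_c0, with 40 reads in drought and 0 in control, was 11.4-fold higher in the same way. The lower ends of their log2FC counting intervals were 3.26 and 3.15. With 3 reads in place of 0 for both of them, the median of the 12 was again 3.41. The 2 NAC unigenes were at 2.24 and 2.45, near c52656.graph_c0. Of 8 unigenes of jasmonate synthesis and signalling, the hormone route that WRKY and MYC factors are known to act in, 7 were at least 2 higher and JAR1, which joins jasmonate to isoleucine, was lower, at -2.31. Their median was 3.18. A further 23 named unigenes, mostly enzymes of sugar, lignin and glutathione metabolism, split into 13 at least 2 higher and 10 at least 2 lower. Their median was 2.20, also with 3 reads put in place of 0 for the 2 that had none in a library. The lists do not hold every unigene that the study names. Absent are UDP-sugar, pectin and trehalose unigenes and a peroxidase unigene that the study gives as lower in drought. These lists share their libraries with the WRKY unigenes and come from unigenes that the study reports as differing between them, so their values are set side by side only.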

How the data were processed

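RNA of *Phormium tenax* leaf blades was sequenced from both ends on an Illumina instrument, with 1 pooled library for drought and 1 for control. The authors filtered the reads, assembled both libraries together with Trinity and deposited 1 table per library. The deposited expected counts are estimated reads per unigene without normalization. FPKM, as deposited, divides these counts by effective length and by library size. TPM, as deposited, divides by effective length before setting each library to an equal sum. The submitters' processing notes name Bowtie 0.12.2, Cufflinks and the mouse build mm8, with no role given, whereas the column names are those RSEM writes. How reads were assigned to unigenes is not given in the sources used.

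Expected counts were rounded to whole numbers and scaled with edgeR 4.0.16 (TMM, R 4.3.3). A unigene counts as past the fold when its log2FC, with 1 read added to each scaled count, is at least 2, whatever its reads. With 1 library per condition no test was run, and the study's EBSeq analysis was not repeated. Factors of DESeq2 1.42.0, upper-quartile factors, total reads, pseudocounts of 0.01 and 5 reads, TPM and FPKM with 0.1 added, log2FC thresholds of 1 and 3 and minimum reads and lengths were tried as alternatives. The computation of ratios and intervals was checked on simulated Poisson counts. These hold no variation between plants, so the check cannot show how the intervals would hold across plants. Python 3.11.15, NumPy 2.4.6, SciPy 1.17.1, pandas 2.3.3 and matplotlib 3.10.9 were used. Named unigenes are the members, unigenes of their components, the nearest in level, and lists of some of the unigenes to which the study gives a name. Members, lists and alternatives were chosen with earlier results of these data known. Primer sequences come from the study's supplement.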

Additional observations from a re-analysis of the deposited data

How the results depend on the processing

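The lowest log2FC of a WRKY unigene was 2.13, so factor shifts of at most 0.287 could not bring any to equality. Of 42 alternative log2FC values (7 for each member), 31 stayed within the member's counting interval, 11 lay outside it and 0 were below 0. They ran from 1.92 (c52656.graph_c0, upper-quartile factors) to 5.22 (c54290.graph_c0, total reads), and the first was the only one below 2. The choice of factors moves all unigenes alike, by 0.287 on the log2 scale for total reads against TMM and by -0.214 for upper-quartile factors. With total reads the median log2FC of the members was 4.24. The log2 ratio of their summed TPM was 4.04, and it was 4.13 from FPKM and 3.84 from TMM-scaled reads per effective length. With a threshold of 3 the count of members was 5.

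The share of all unigenes past the fold moved far more, and the cause was not tested. It was 27.6% as reported, and it was higher at 40.3% with a log2FC threshold of 1, 35.5% with FPKM, 35.1% with TPM, 34.8% with a pseudocount of 0.01 reads and 33.7% with total reads. It was 4.06% with a pseudocount of 5 reads, 10.1% at a log2FC threshold of 3, 17.7% with at least 10 reads in both libraries together, 4.60% with at least 10 reads in each library and 17.0% among unigenes of at least 300 bp. Without scaling for length, 9 of the 12 shares of the summed level left their counting intervals, which are too narrow because the other members were held fixed. No paired analysis was possible because each condition has 1 library.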
